A study of Mus musculus with 8 samples.

Results

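Histone deacetylases and sirtuins take acetyl groups off lysines of histones and of other proteins. The group described here held 10 genes, taken as a named list and read on the mouse genome build mm10. These were the class I genes Hdac1, Hdac2, Hdac3 and Hdac8, the class IIa genes Hdac4, Hdac5 and Hdac9, the class IV gene Hdac11, and the sirtuins Sirt1 and Sirt2, out of 21887 protein-coding genes in all. For each gene, the peaks of 8 deposited lists were read at the gene ends (within 1 kb of either boundary), in the gene body and within 10 kb on both sides. The gene with both flanks is called its locus.

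The study mapped where the ATP-dependent chromatin remodelers Chd7 and Chd8 sit, by ChIP-seq (sequencing of DNA pulled down with an antibody), in O4+ cells. These came from cortex and corpus callosum of untreated wild-type mice at postnatal day 7 by magnetic sorting, and are labelled oligodendrocyte precursor cells (OPCs), since O4 is an antigen of that lineage. There were 2 libraries for Chd7, 1 for Chd8, 2 mocks made with rabbit IgG, of which Chd7 replicate 2 and Chd8 shared the second, and 3 inputs made without antibody. Chd8 had no replicate, and the labels do not say whether animals were pooled or whether the Chd7 replicates were separate animals.

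The deposited lists held 5282 and 6292 peaks for Chd7 replicates 1 and 2, 18415 for Chd8, 89 and 98 for the mocks, and between 91628 and 178478 for the inputs. Each peak came with a fold over the local background and a −log10 q from the authors' peak caller, and depth is unknown since the lists carry no read counts. Folds were ranked within a list only. A Chd7 region was called reproducible where peaks of both replicates overlapped, which gave 1383 regions. As a check of the labelled cells by markers, Chd8 peaks lay at an end of 6 of 8 OPC markers, 2 of 6 oligodendrocyte markers, 1 of 4 astrocyte, 1 of 4 neuron, 0 of 4 microglia and 0 of 4 endothelial markers, beside 41.0% of all protein-coding genes. Reproducible Chd7 regions lay at 2 of the 8 OPC markers, Gpr17 and Bcan, and at none of the other lists, beside 4.83% of all genes. Input 3 had peaks at 5, 4, 2, 4, 1 and 2 genes of the same lists, beside 45.2% of all genes. With lists this short, these counts do not settle the identity of the cells.

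Class I deacetylases are nuclear enzymes; Hdac1 and Hdac2 work inside the Sin3, NuRD and CoREST corepressor complexes and Hdac3 inside the NCoR complex. Class IIa enzymes shuttle between nucleus and cytoplasm and act mainly as transcriptional corepressors, and sirtuins use NAD+ as a cosubstrate. In the mouse, loss of both Hdac1 and Hdac2 blocks oligodendrocyte differentiation, and Sirt2 is a tubulin deacetylase abundant in oligodendrocytes and myelin.

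Chd8 lay at an end of 7 of the 10 genes and Chd7 reproducibly at an end of Sirt2 alone. The 7 genes with Chd8 were Hdac1, Hdac2, Hdac3, Hdac5, Hdac8, Hdac11 and Sirt2, while 41.0% of all protein-coding genes had a Chd8 peak at an end. The single gene with a reproducible Chd7 region stood beside 4.83% of all genes. Chd7 replicate 1 alone also marked only Sirt2 (10.4% of all genes), and Chd7 replicate 2 alone marked Hdac3, Hdac11 and Sirt2 (17.0% of all genes). Neither mock had a peak anywhere in the 10 loci, and mock peaks lay at the locus of 0.151% and 0.142% of all genes. At gene ends these shares were 0.0183% and 0.0137%. With shares this low, no mock peak among 10 genes is near the share over all genes. In bulk libraries, occupancy in fewer cells and weaker occupancy per cell cannot be told apart. No test was made of these counts, since the genes were chosen as a list and the libraries give no replicate error for Chd8.

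Input peaks were read at the same gene ends. Input 3 had a peak at an end of 7 of the 10 genes (45.2% of all genes), namely Hdac1, Hdac2, Hdac3, Hdac4, Hdac5, Hdac11 and Sirt1. Input 1 had one at Hdac3 only (21.9% of all genes) and input 2 at Sirt2 only (28.4% of all genes). Of the 21 Chd8 peaks in the 10 loci, 11 touched a peak of input 3, the input that the labels assign to Chd8, as did 40.3% of the whole Chd8 list. Input 3 was also touched by 2 of 5 Chd7 replicate 1 peaks and 7 of 10 replicate 2 peaks (34.3% and 52.5% of the whole lists). The inputs that the labels assign to these libraries, inputs 1 and 2, were touched by 0 of 5 and 3 of 10 (15.2% and 32.8% of the whole lists). With Chd8 peaks that touch input 3 removed, Chd8 remained at an end of Hdac5, Hdac8 and Sirt2, 3 of 10 genes beside 16.7% of all genes. Track names inside the files pair Chd8 with input 2 instead; with input 2 peaks removed, 6 of 10 genes kept Chd8 at an end (29.1% of all genes), and the gene lost was Sirt2.

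**Figure D1:**
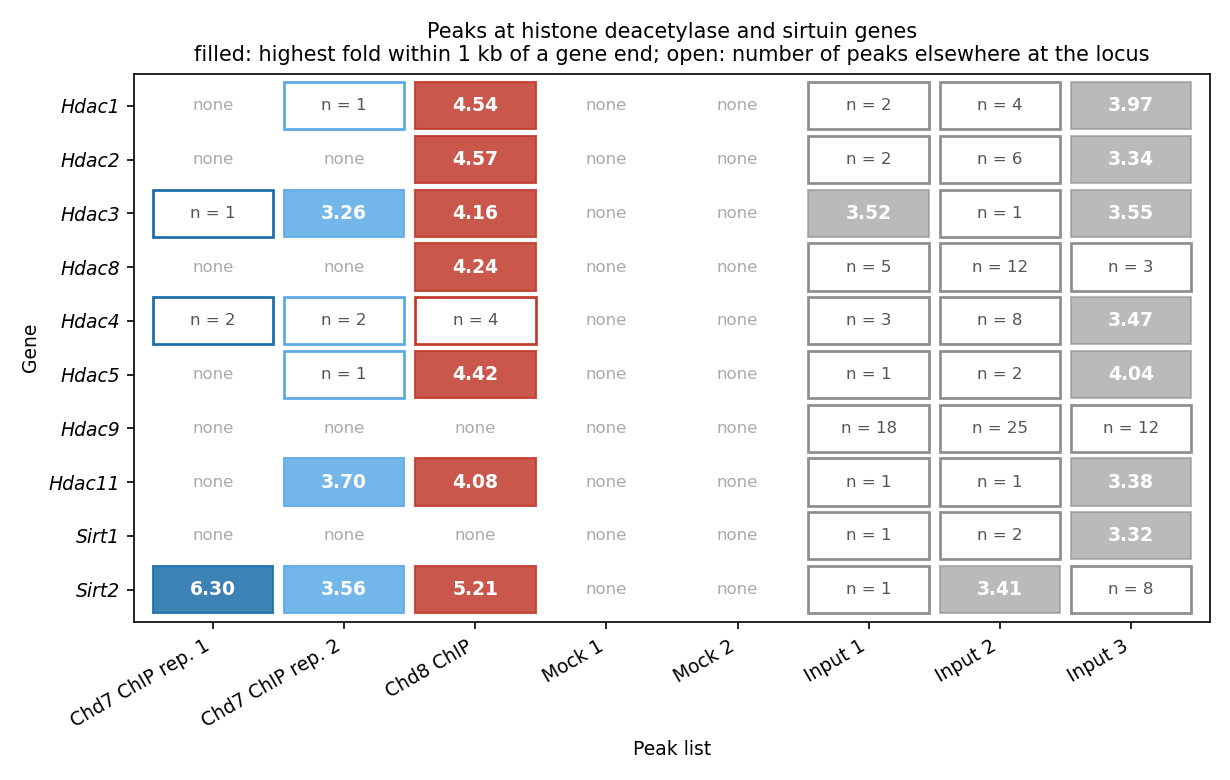
Highest peak fold (authors' caller) within 1 kb of a gene end for the 10 genes (rows) in the 8 deposited lists (columns); open boxes give the number of peaks elsewhere at the locus where no peak lay at an end. Chd8 fills 7 rows, Chd7 fills both columns only at Sirt2, and both mock columns are empty.

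Over whole loci, reproducible Chd7 regions were found at Hdac3, Hdac4 and Sirt2, 3 of 10 genes, beside 8.45% of all genes. Chd8 was found at 8 of 10, all except Hdac9 and Sirt1, beside 56.9% of all genes. Loci differ in length, and genes in the same length deciles as these 10 had a reproducible Chd7 region in 9.94% of cases and a Chd8 peak in 66.6%, averaged over the genes. The loci held 5 Chd7 replicate 1 peaks, 10 Chd7 replicate 2 peaks and 21 Chd8 peaks. All 5 replicate 1 peaks and 7 of the 10 replicate 2 peaks touched a Chd8 peak, as did 78.8% and 62.2% of the whole replicate 1 and replicate 2 lists. Of the Chd8 peaks, 8 lay at gene ends, 9 inside gene bodies and 4 in the flanks.

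Within their own lists, all 5 Chd7 replicate 1 peaks, 5 of the 10 Chd7 replicate 2 peaks and 8 of the 21 Chd8 peaks lay above the list median fold. The Chd8 peaks ran from a fold of 3.81 to 6.01 with a median of 4.24, against 4.47 for the whole Chd8 list. Only 1 had a −log10 q of at least 5. Another 3, in the bodies of Hdac4, Hdac11 and Sirt2, stood at 1.81, the lowest −log10 q in the Chd8 list. At gene ends the highest Chd8 fold was below the median of 4.85 over the 8966 occupied genes for 6 of the 7 genes. Sirt2 was the exception with 5.21, higher than 64.4% of occupied genes, and Hdac11 had the lowest value, 4.08, higher than 13.2%.

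**Figure D2:**
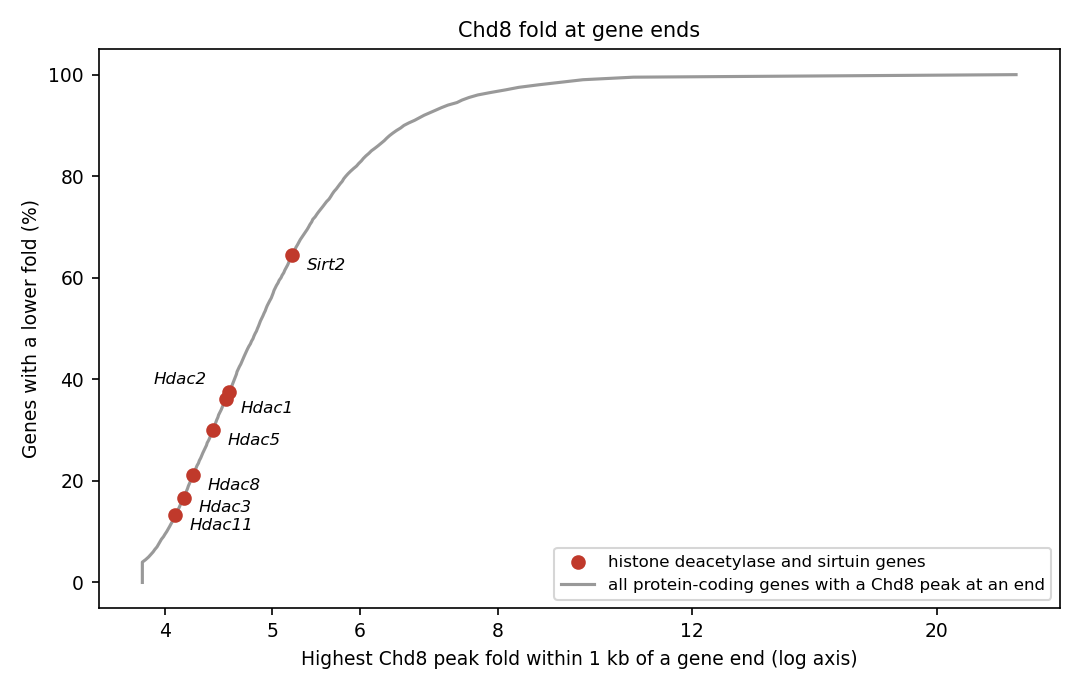
Highest Chd8 peak fold within 1 kb of a gene end (log axis) against the share of occupied protein-coding genes with a lower fold; red points are the 7 deacetylase and sirtuin genes, the grey line all 8966 occupied genes. Sirt2 (5.21) lies above the median of 4.85 and the other 6 genes lie between 4.08 and 4.57.

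RefSeq promoter windows of build GRCm38.p6, 250 bases before to 50 after a start site, were given for 8 of the 10 genes. Chd8 peaks touched the windows of 5 of these 8 (Hdac4, Hdac5, Hdac8, Hdac11 and Sirt2), beside 37.6% of the 17492 protein-coding genes with a window. Reproducible Chd7 regions touched those of 2 (Hdac4 and Sirt2), beside 4.88%. Input 3 peaks touched those of 3 (Hdac4, Hdac5 and Hdac11), beside 30.8%. Peaks of inputs 1 and 2 touched 0, beside 11.5% and 12.7%. The windows of 6 genes are shown because they span the range of occupancy: Sirt2 and Hdac4 lay under both remodelers, Hdac11 under Chd8 and Chd7 replicate 2, Hdac8 under Chd8 without any input peak, and Sirt1 and Hdac9 under no ChIP peak. They lie at chr7:28766502-28766801 on the plus strand (Sirt2), chr1:92180292-92180591 on the minus strand (Hdac4), chr6:91156565-91156864 on the plus strand (Hdac11), chrX:102505109-102505408 on the minus strand (Hdac8), chr10:63338986-63339285 on the minus strand (Sirt1) and chr12:34917046-34917345 on the minus strand (Hdac9, the upstream of its 2 windows). Each is written 5′ to 3′ along its gene, with capitals for the bases that lie under the peaks of every ChIP list that touched the window.
Sirt2: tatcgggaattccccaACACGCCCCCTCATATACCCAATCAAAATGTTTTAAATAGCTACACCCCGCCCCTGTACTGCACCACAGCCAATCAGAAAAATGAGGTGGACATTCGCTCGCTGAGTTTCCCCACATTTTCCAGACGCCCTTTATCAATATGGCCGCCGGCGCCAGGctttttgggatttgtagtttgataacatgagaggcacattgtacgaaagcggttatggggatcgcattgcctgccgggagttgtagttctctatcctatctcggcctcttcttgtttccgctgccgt
Hdac4: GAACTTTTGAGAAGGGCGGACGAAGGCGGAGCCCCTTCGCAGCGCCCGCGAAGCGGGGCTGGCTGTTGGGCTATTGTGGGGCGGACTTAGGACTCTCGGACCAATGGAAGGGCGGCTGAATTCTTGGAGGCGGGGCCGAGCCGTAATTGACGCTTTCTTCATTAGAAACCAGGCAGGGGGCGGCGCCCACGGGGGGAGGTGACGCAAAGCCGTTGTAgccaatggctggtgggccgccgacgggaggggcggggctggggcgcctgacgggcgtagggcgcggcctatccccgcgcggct
Hdac11: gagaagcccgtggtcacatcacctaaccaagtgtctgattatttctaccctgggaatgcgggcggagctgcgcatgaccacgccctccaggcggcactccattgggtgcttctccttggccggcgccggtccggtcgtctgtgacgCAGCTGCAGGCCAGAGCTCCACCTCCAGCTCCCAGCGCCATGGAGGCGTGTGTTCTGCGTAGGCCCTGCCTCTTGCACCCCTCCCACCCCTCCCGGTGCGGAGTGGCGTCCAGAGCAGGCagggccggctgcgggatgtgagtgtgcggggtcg
Hdac8: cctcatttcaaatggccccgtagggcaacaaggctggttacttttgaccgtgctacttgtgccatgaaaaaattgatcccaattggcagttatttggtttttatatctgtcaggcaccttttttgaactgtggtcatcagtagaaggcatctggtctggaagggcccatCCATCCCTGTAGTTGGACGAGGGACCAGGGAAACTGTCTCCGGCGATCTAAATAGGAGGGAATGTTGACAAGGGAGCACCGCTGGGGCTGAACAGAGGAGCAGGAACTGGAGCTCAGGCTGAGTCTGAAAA
Sirt1: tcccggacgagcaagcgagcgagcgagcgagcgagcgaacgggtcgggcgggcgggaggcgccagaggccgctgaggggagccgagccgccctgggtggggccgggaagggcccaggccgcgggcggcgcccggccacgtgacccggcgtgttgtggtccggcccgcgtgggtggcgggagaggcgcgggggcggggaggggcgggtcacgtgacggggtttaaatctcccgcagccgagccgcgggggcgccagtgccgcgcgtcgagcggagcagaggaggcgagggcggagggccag
Hdac9: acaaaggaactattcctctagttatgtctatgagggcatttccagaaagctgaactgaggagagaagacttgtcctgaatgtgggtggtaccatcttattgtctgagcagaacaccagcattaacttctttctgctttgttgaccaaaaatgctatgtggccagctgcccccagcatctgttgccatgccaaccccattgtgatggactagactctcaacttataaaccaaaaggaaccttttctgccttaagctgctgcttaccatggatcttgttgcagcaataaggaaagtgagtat

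The capitals cover 157 bases at Sirt2, 217 at Hdac4, 120 at Hdac11 and 131 at Hdac8. The windows differ widely in CG dinucleotides, with 16 at Sirt2, 32 at Hdac4, 22 at Hdac11, 6 at Hdac8, 47 at Sirt1 and 0 at Hdac9, against a median of 13 over 21263 windows. The windows not shown had 36 at Hdac2, 18 at Hdac5 and 3 at the downstream Hdac9 window. Sirt1 had more CG dinucleotides than 98.2% of windows yet no peak of any of the 8 lists on its window. Among windows with 25 or more CG dinucleotides, which were chosen as a class after the values were seen, Chd8 touched 56.0% of 5263, reproducible Chd7 regions touched 9.61%, and input 3 touched 47.7%. Hdac8 was the reverse case: its window fell in the class of 5 to 9, of which Chd8 touched 13.6% and input 3 touched 10.7%.

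**Figure D3:**
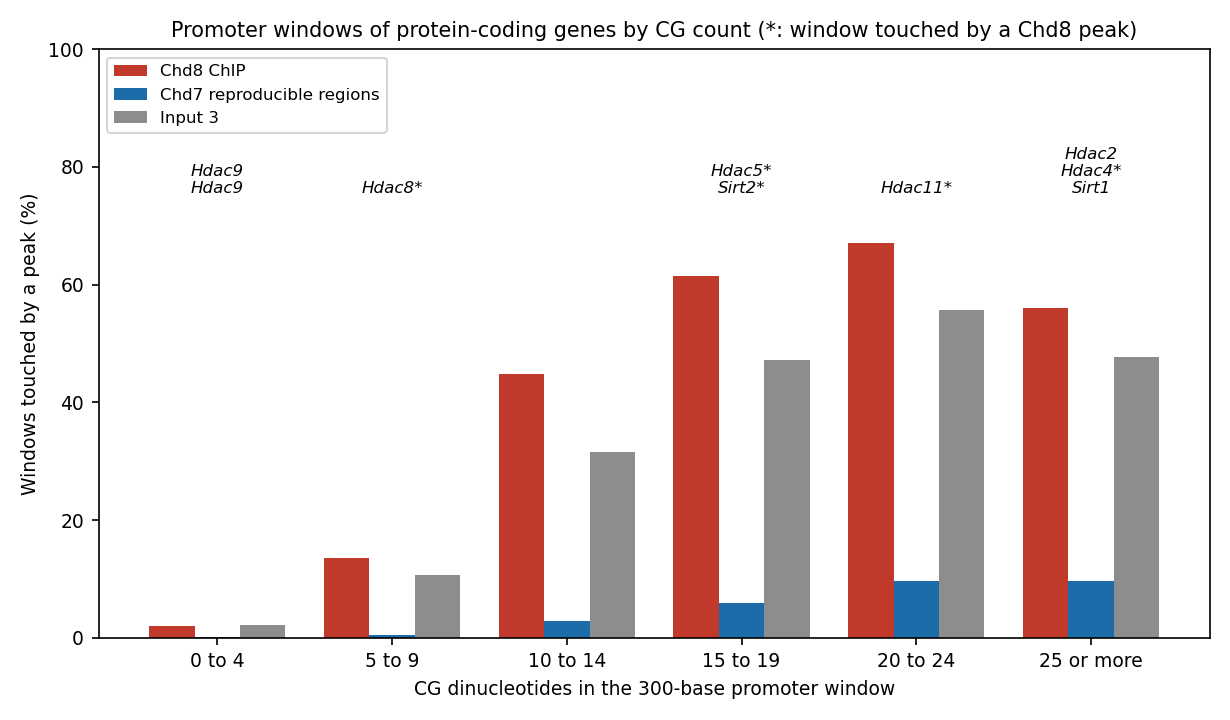
Share of 300-base promoter windows touched by Chd8 peaks (red), reproducible Chd7 regions (blue) and input 3 peaks (grey), by number of CG dinucleotides in the window; gene names mark the class of each deacetylase or sirtuin window, with an asterisk where a Chd8 peak touched it. Chd8 touched 1.94% of windows in the lowest class and 67.1% in the class of 20 to 24.

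Short motifs were searched in the windows on both strands. The GC box GGGCGG, found in 46.2% of all windows, occurred 7 times at Sirt1, 5 times at Hdac4, and once each at Sirt2, Hdac2, Hdac5 and Hdac11. The E-box CANNTG, found in 69.0% of all windows, was in none of the Sirt2, Hdac4 and Hdac2 windows, the last of which no ChIP peak touched, and occurred at Hdac5, Hdac8, Hdac9, Hdac11 and Sirt1. Its forms CAGCTG (15.6% of all windows), CAGATG (14.6%) and CACGTG (7.84%) are counted within it; CAGCTG occurred at Hdac9 and Hdac11, CAGATG at Hdac5, Hdac8 and Hdac9, and CACGTG at Hdac5 and Sirt1. The Sox-type core ACAATG (11.0%) occurred at Sirt2, 41 bases upstream of the start, and in both Hdac9 windows. The Sirt2 match lay outside the capitals, under the Chd8 peak but under neither Chd7 peak. ACAAAG (16.8%) occurred only in the upstream Hdac9 window. These are matches of letters and were not tested as binding sites.

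Hdac1 and Hdac2, the paired catalytic subunits of the corepressor complexes, each carried 1 Chd8 peak and no Chd7 peak at a gene end. The Hdac1 gene spans chr4:129516104-129542646. Its Chd8 peak, at chr4:129542593-129543066, crossed the upper boundary with a fold of 4.54 and a −log10 q of 2.87 (rank 8556 of 18415), and a peak of input 3 lay there too. The Chd8 peak at Hdac2, at chr10:36975003-36975302, began 459 bases downstream of the start site, outside the promoter window. It had a fold of 4.57 and a −log10 q of 2.91 (rank 8324 of 18415), and again touched an input 3 peak. Both folds lay near the Chd8 list median of 4.47.

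Below Hdac1 lies Marcksl1, a gene related to the actin regulator Marcks and 122 bases away, and the other ChIP peaks of the Hdac1 locus lay within 1 kb of its far boundary. Chd7 replicate 2 had a peak there with a fold of 3.37 (−log10 q 1.71), which touched a Chd8 peak with a fold of 4.18 (−log10 q 2.33). Both touched peaks of inputs 2 and 3. A second Chd8 peak near Marcksl1 had a fold of 5.12 (−log10 q 3.84) and touched an input 1 peak. These ChIP peaks lay 1327, 1515 and 2429 bases from the Hdac1 boundary, so none counted as an Hdac1 gene-end peak.

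Hdac8, the class I enzyme known for deacetylating the cohesin subunit Smc3, had a single ChIP peak in a gene of 220744 bases on the X chromosome. The Chd8 peak at chrX:102505094-102505239 covered the start site, with a fold of 4.24 and a −log10 q of 2.41 (rank 11655 of 18415). No input peak touched it, although the inputs had 5, 12 and 3 peaks elsewhere in the locus. An end of the lncRNA gene Gm32262 lay within 1 kb of it.

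Hdac3, the catalytic subunit of the NCoR complex, had Chd7 and Chd8 peaks at the same boundary that did not overlap. Its upper boundary lies 38 bases from Rell2. The Chd7 replicate 2 peak there had a fold of 3.26 and a −log10 q of 1.59 (rank 3942 of 6292). The Chd8 peak had a fold of 4.16 and a −log10 q of 2.30 (rank 12672 of 18415), and 205 bases separated the peaks. Both touched an input 3 peak, and the Chd7 peak also touched an input 1 peak. Chd7 replicate 1 had no peak at this boundary.

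The strongest ChIP peaks of the Hdac3 locus lay at the boundary of its other neighbour, Diaph1, a formin gene 1348 bases away. The Chd8 peak there had a fold of 6.01 and a −log10 q of 5.44 (rank 1713 of 18415), the highest of the 21 Chd8 peaks in the 10 loci. Chd7 had a fold of 5.52 in replicate 1 (rank 570 of 5282) and 4.08 in replicate 2 (rank 445 of 6292). The merged Chd7 region was 1165 bases from the Hdac3 boundary and touched peaks of inputs 2 and 3. Hdac3 is thus counted with Chd7 at its locus through a peak at the end of Diaph1.

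Hdac4, a class IIa corepressor, carried both remodelers at an internal start site. The annotated gene runs from chr1:91928779 to chr1:92195702 on the minus strand, and the RefSeq start site with a promoter window lies 15361 bases inside its upper boundary. Chd7 peaks lay there with a fold of 5.15 in replicate 1 (−log10 q 3.01, rank 1106 of 5282) and 3.46 in replicate 2 (−log10 q 1.90, rank 2302 of 6292), and the Chd8 peak had a fold of 4.92 (−log10 q 3.51, rank 5673 of 18415). The 3 peaks shared 550 bases, chr1:92180375-92180924, which ended 34 bases upstream of the start. Input 3 also had a peak there, and inputs 1 and 2 did not. Counted by RefSeq start sites in place of gene boundaries, a choice made after the data were seen, reproducible Chd7 lay at Hdac4 and Sirt2, 2 of 8 genes beside 5.23% of the 17492 genes with a window, and Chd8 at 6 of 8 beside 43.6%.

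Deep inside Hdac4, 211144 bases or more downstream of that start, peaks of Chd7 replicate 1 and Chd8 met again. The Chd7 replicate 1 peak, chr1:91968932-91969197, had a fold of 5.18 (−log10 q 3.09) and the Chd8 peak, chr1:91968880-91969077, a fold of 4.53 (−log10 q 2.84). No input peak touched either, and Chd7 replicate 2 had no peak there. Chd7 replicate 2 had a separate body peak with a fold of 3.27, and Chd8 had 2 more, with folds of 4.12 and 3.81, none of which touched another ChIP list or an input.

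**Figure D4:**
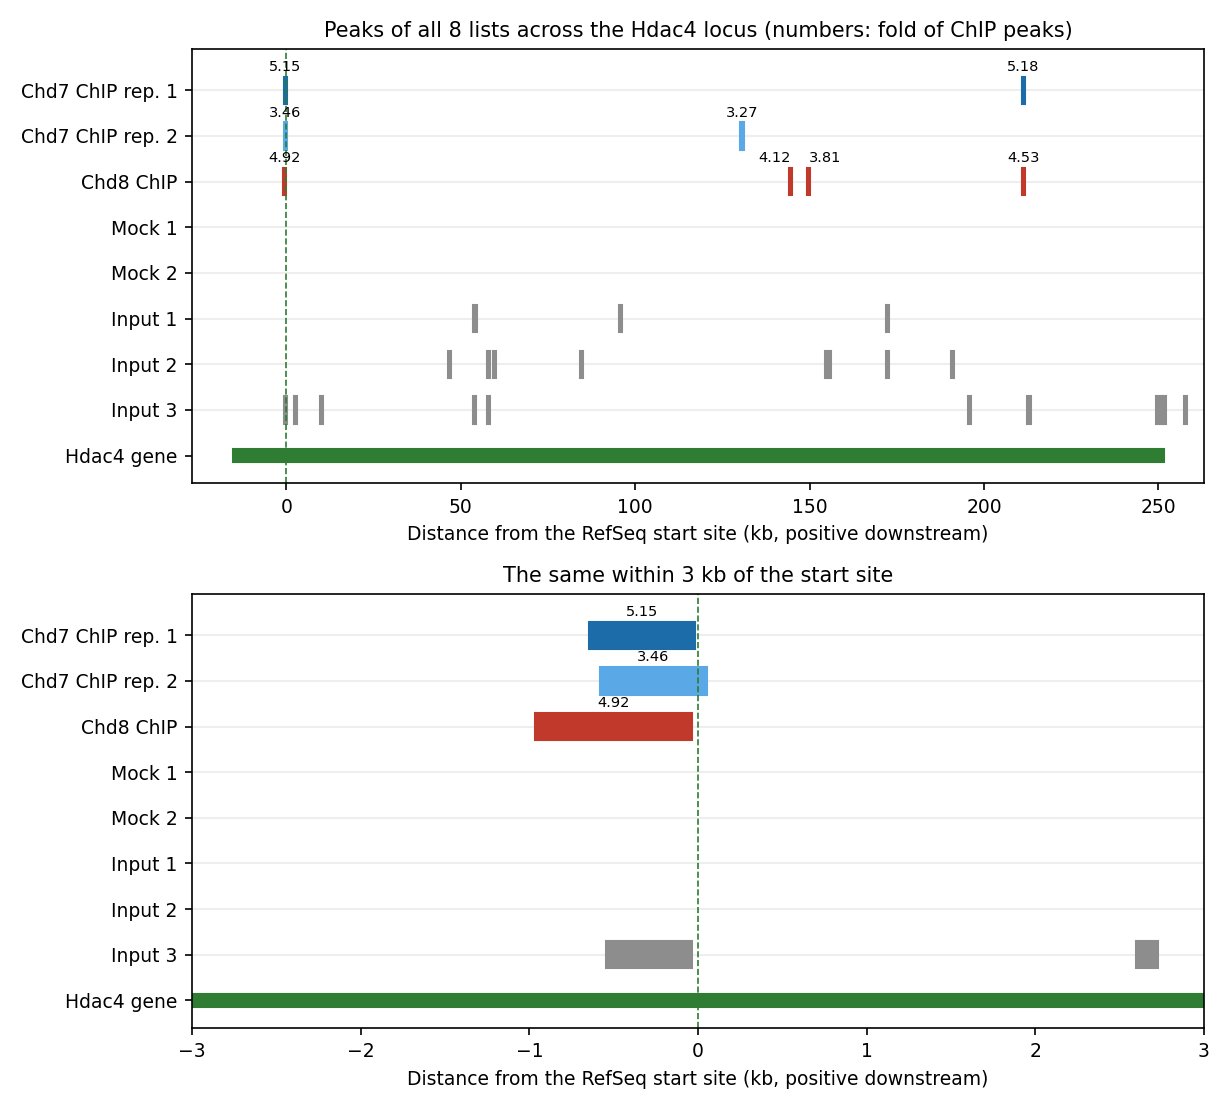
Peaks of the 8 lists (rows) by distance from the Hdac4 RefSeq start site in kb, across the locus (upper panel) and within 3 kb of the start (lower panel); numbers give ChIP peak folds, and narrow peaks are widened to be visible in the upper panel. Folds of 5.15, 3.46 and 4.92 stand together at or just upstream of the start, where input 3 also has a peak.

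Hdac5, another class IIa corepressor, had Chd8 but no Chd7 at its start. A Chd8 peak at chr11:102230119-102230490 covered the start site and the whole promoter window, with a fold of 4.42 and a −log10 q of 2.67, and touched an input 3 peak. A further Chd8 peak 371 bases inside the gene, with a fold of 4.08 (−log10 q 2.18), touched no input. An end of the microRNA gene Mir8101 lay within 1 kb of both. In the gene body, Chd7 replicate 2 had a peak of 1041 bases with a fold of 3.25 that contained a Chd8 peak with a fold of 3.95; inputs 1 and 3 also had peaks there. A flank peak of Chd8 at an end of G6pc3, a glucose-6-phosphatase gene, had a fold of 3.98 and touched an input 3 peak.

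Hdac9, the largest of the genes at 869516 bases, had no ChIP peak anywhere in its locus. The inputs had 18, 25 and 12 peaks in it. Of the 85 protein-coding genes with a locus at least as long, itself included, 71 (83.5%) had a Chd8 peak and 11 (12.9%) a reproducible Chd7 region. Both of its promoter windows fell in the class of 0 to 4 CG dinucleotides, of which Chd8 touched 1.94%.

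Hdac11, the class IV enzyme, had Chd7 replicate 2 and Chd8 together on its start site. The Chd7 peak, chr6:91156711-91156836, had a fold of 3.70 and a −log10 q of 2.20 (rank 1215 of 6292). The Chd8 peak, chr6:91156670-91156830, had a fold of 4.08 and a −log10 q of 2.19 (rank 13578 of 18415). Both touched an input 3 peak, and Chd7 replicate 1 had none at this locus. A second Chd8 peak, 8540 bases downstream of the start with a fold of 3.81, was alone.

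Sirt1, a nuclear NAD+-dependent deacetylase, had no peak of any ChIP list in its locus. The inputs had 1, 2 and 1 peaks there, of which the input 3 peak lay at the boundary far from the start. Of the genes in the same length decile, 61.4% had a Chd8 peak at the locus and 9.73% a reproducible Chd7 region. With flanks of 50 kb in place of 10 kb, a Chd8 peak entered the Sirt1 locus and Hdac9 alone remained without one. Under that setting 71.5% of all genes had a Chd8 peak at the locus.

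Sirt2 was the only gene of the group with a reproducible Chd7 region and Chd8 together at 2 places. Its 4 Chd8 peaks equalled those of Hdac4 and Hdac5, and the highest Chd8 fold of the group lay at the Hdac3 locus (6.01). For locus length, input 2 and input 3 peaks were also densest at Sirt2 (6 and 8 peaks), while input 1 peaks were not. Whether the ChIP peaks at Sirt2 follow from this was not tested. The first place was the start shared with Nfkbib, an inhibitor of NF-κB. The Nfkbib boundary lies 108 bases from that of Sirt2, and the gene runs the opposite way. Chd7 replicate 1 had a peak there, chr7:28766518-28766674, with a fold of 6.30 and a −log10 q of 5.04. It ranked 145 of 5282 in its list, and only 24 of the 2281 genes with a replicate 1 peak at an end had a higher fold. Chd7 replicate 2 covered chr7:28766314-28766690 with a fold of 3.56 and a −log10 q of 2.00 (rank 1777 of 6292). Chd8 covered chr7:28766253-28766758 with a fold of 5.21 and a −log10 q of 3.96 (rank 4103 of 18415). All 157 bases of the replicate 1 peak lay inside both other peaks, and these are the capitals in the Sirt2 sequence above. No input peak touched these bases; an input 2 peak with a fold of 3.41 touched the replicate 2 and Chd8 peaks on the Nfkbib side. With peaks of the inputs that the labels match to each library removed, or with a reciprocal overlap of 50% required, no reproducible Chd7 region remained at this end. With the inputs paired by the track names instead, the reproducible Chd7 region remained (0.758% of all genes) and the Chd8 peak was lost. Peaks at this place cannot be assigned to Sirt2 rather than Nfkbib.

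The second Sirt2 place lay in the gene body, more than 7 kb downstream of the start and near an end of the lncRNA gene Gm19897. Chd7 had folds of 4.69 (−log10 q 2.31, rank 2293 of 5282) in replicate 1 and 3.11 (−log10 q 1.36, rank 5616 of 6292) in replicate 2, and Chd8 had 4.98 (−log10 q 3.55, rank 5351 of 18415). The peaks shared 343 bases, chr7:28774166-28774508, and all 3 touched an input 3 peak. Chd8 alone had body peaks with folds of 4.31 and 3.81, and Chd7 replicate 2 alone had a flank peak with a fold of 3.15, none of them touched by an input.

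**Figure D5:**
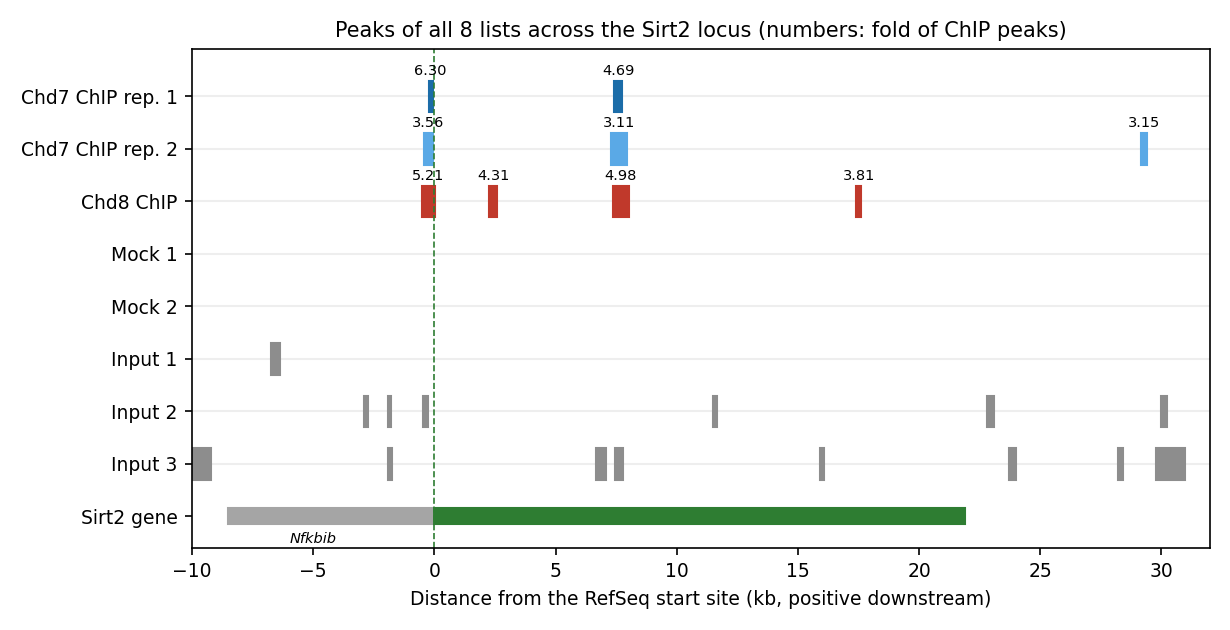
Peaks of the 8 lists (rows) by distance from the Sirt2 RefSeq start site in kb, with the Sirt2 gene in green and Nfkbib in grey; numbers give ChIP peak folds, and narrow peaks are widened to be visible. All 3 ChIP lists have peaks at or just upstream of the start (6.30, 3.56 and 5.21) and in the body (4.69, 3.11 and 4.98). The body site also carries an input 3 peak. At the start, an input 2 peak touches the Chd7 replicate 2 and Chd8 peaks.

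The rest of the enzyme family and the proteins that deacetylases work with were counted the same way. Of the other 8 family genes, 6 had Chd8 at an end (41.0% of all genes) and 0 had reproducible Chd7 (4.83% of all genes). Inputs 1, 2 and 3 had peaks at an end of 3, 2 and 6 of them, beside 21.9%, 28.4% and 45.2% of all genes. With 8 genes, a count of 0 for Chd7 is near the share over all genes. The highest Chd8 folds were 6.19 at Sirt6, a chromatin-bound deacetylase, 5.98 at Sirt4 and 5.56 at Sirt3, both mitochondrial sirtuins. Hdac6 and Hdac7 had no ChIP peak at an end.

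Of 39 corepressor subunits, 33 (84.6%) had Chd8 and 7 (17.9%) a reproducible Chd7 region at an end, beside 41.0% and 4.83% of all genes. Inputs 1, 2 and 3 had peaks at 20, 20 and 30 of the 39, beside 21.9%, 28.4% and 45.2% of all genes. The 7 genes with Chd7 were all of the Sin3 and NuRD complexes, whose subunits make up most of the list. Each of these 7 genes also had a peak of input 3, and of input 1 or input 2, at an end. Among Sin3 subunits, the mean Chd7 fold of both replicates was 4.31 at the scaffold gene Sin3a, 4.29 at Arid4a, 4.90 at Ing1 and 4.53 at Ing2; at Sin3a the replicate 2 peak itself lay outside the window. It was 4.45 at Rbbp4, a histone-binding subunit of both complexes. Among NuRD subunits it was 3.77 at Mta2 and 4.67 at Mbd3. The highest Chd8 folds were 8.89 at Arid4a, 8.87 at Kdm1a, the histone demethylase of CoREST, and 7.15 at Rbbp4. The highest Chd8 fold at an end of any of the 10 deacetylase and sirtuin genes was the 5.21 at Sirt2. That is the highest of 7 genes with Chd8, against 33 among the corepressor subunits, so the highest values are not a like comparison. These lists were counted without a test.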

How the data were processed

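ChIP-seq peak lists of 8 libraries were used as deposited, 1 list per library on mm10. Alignment, filtering and peak calling used Bowtie2, SAMtools, Picard and MACS, per the submitters' processing notes. Versions, settings and the control used in calling were not given in the sources used here. Per the file headers these are broad peaks. Column 5 holds a score per peak from the authors' caller and was not used further. Column 7 holds the fold of a peak over local background, a ratio made by the authors. Columns 8 and 9 hold −log10 p and −log10 q, also by the authors. By the labels anti-Chd7, anti-Chd8 and rabbit IgG antibodies were used, whereas the extraction notes name the O4 antibody, which was not resolved. Track names number Chd7 replicate 2 and Chd8 differently from the titles, and the titles were followed.

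ChIP peaks that touched a mock peak by 1 bp were removed, which left 5218, 6237 and 18350. Genes came from a RefSeq table of GRCm38.p6, the same build, in which all 10 genes matched by symbol; strand and promoter windows came from the RefSeq promoter table. Peak overlaps were computed in Python 3.11.15 with numpy 2.4.6 and pandas 2.3.3 and checked on simulated intervals. Counts stand beside the same share over all protein-coding genes, with no test. Named were the 10 genes with all ChIP peaks, neighbours with an end within 1 kb of such a peak, and other listed genes with reproducible Chd7 or among the 3 highest Chd8 folds of their list; Hdac6 and Hdac7 were added after their values were seen. The genes and lists were chosen with earlier results of these data known. Alternatives were 13 planned settings of threshold, input removal, list length, window, gene end and replicate, and 1 added after the data were seen.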

Additional observations from a re-analysis of the deposited data

How the results depend on the processing

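Counts are of 10 genes, each followed by the share over all protein-coding genes under the same setting. Keeping mock-touching peaks changed none of the 4 counts. Reproducible Chd7 was at 1 gene end (4.84%) and 3 loci (8.54%), and Chd8 at 7 gene ends (41.0%) and 8 loci (56.9%). Counting only the start end, possible for 8 genes and not defined for loci, gave Chd7 at 1 (4.89%) and Chd8 at 5 (40.3%). Requiring a −log10 q of at least 5 left Chd7 at 0 ends (0.0%) and 0 loci (0.00914%) and Chd8 at 0 ends (8.28%) and 1 locus (13.2%), of 5 Chd7 regions and 2039 Chd8 peaks. A fold of at least 5 left Chd7 at 0 ends (0.0137%) and 0 loci (0.0503%), and Chd8 at 1 end (17.8%) and 3 loci (28.0%). Equal list lengths gave Chd8 at 1 end (18%) and 3 loci (28.2%). Removing peaks of the matching input by the labels left Chd7 at 0 ends (1.75%) and 2 loci (3.70%), and Chd8 at 3 ends (16.7%) and 6 loci (34.0%). With inputs paired by the track names, Chd7 stayed at 1 end, Sirt2 (0.758%), and was at 1 locus (1.97%). Chd8 was then at 6 ends (29.1%) and 8 loci (47.1%). Removing peaks of any input left Chd7 at 0 ends (0.539%) and 0 loci (1.57%), and Chd8 at 2 ends (13.1%) and 5 loci (29.7%). The wide windows gave Chd7 at 2 ends (6.22%). A reciprocal overlap of 50% left Chd7 at 0 ends (1.72%) and 1 locus (3.37%), which was Hdac4. RefSeq start sites gave Chd7 at 2 of 8 genes (5.23%). With either Chd7 library left out, Chd7 was at 1 to 3 ends (10.4% to 17.0%) and 3 to 6 loci (21.4% to 29.0%), the higher values from replicate 2 alone. Beyond the fewer peaks that each stricter setting leaves by construction, the cause was not tested. Of 46 such values, 23 stayed within 1.5 times the count first given. Per gene, the number of ChIP lists with a peak at an end stayed at 0 for Hdac9 and Sirt1 under the settings tried and stayed at 1 or more for Sirt2. Unreplicated Chd8 and unknown depth limit what the absence of a peak can show. No paired analysis was possible because each result is a count of genes within a list, which comes from no test between groups. The labels' pairing of each ChIP library with an input was used only to remove peaks.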

Other observations

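Histone acetyltransferases, the enzymes that add the acetyl groups, had Chd8 at an end of 7 of 10 genes, beside 41.0% of all genes, and a reproducible Chd7 region at 0 of 10, near the 4.83% of all genes. Chd8 folds were highest at Kat7 (6.18), the catalytic subunit of HBO1 complexes, Ep300 (5.87), a transcriptional coactivator, and Kat8 (4.64), the enzyme that acetylates lysine 16 of histone H4. Inputs 1, 2 and 3 had peaks at an end of 4, 4 and 9 of these 10 genes, beside 21.9%, 28.4% and 45.2% of all genes. No test was made of these counts.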
